A study of Homo sapiens with 4 samples.

Results

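A set of 10 human genes that have been reported as targets of the miR-200 microRNA family, other than the transcription factor genes ZEB1 and ZEB2, were read on Agilent arrays of HCT116 clones with a knockdown of the long non-coding RNA N-BLR. The genes are FN1, MSN, CFL2, WASF3, FHOD1, PPM1F, QKI, TUBB3, NTRK2 and BMI1. They were taken as the 10 gene names with their 25 probes out of 41000 different probes and 30982 gene names on the array. All control spots were left out.

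HCT116 is an established human colon cancer cell line. The arrays compared RNA of the stable clones N-BLR shRNA #3-1 and N-BLR shRNA #4-7 with RNA of an empty vector control, all from HCT116 cells grown without any further treatment named in the labels. There were 4 arrays with 2 colours, 2 for each clone, and each array also received the empty vector RNA. Each arm rests on 1 clone picked after drug selection, and the control is 1 sample, the empty vector RNA. The labels describe lentiviral transduction, whereas the study's methods describe transfection of the shRNA vector. Arrays of the same clone are biological replicates by the labels and duplicates by the methods, so p-values measure the spread between arrays, which may be technical. No gene name on the array held N-BLR (0 of 30982), and the knockdown itself was not read here. Probes at its locus under another name were not searched for. Of the colon epithelial markers, 8 of 11 genes had a probe well above background in both channels on all arrays, EPCAM, KRT8, KRT18 and KRT19 among them, and VIL1, CDH17 and CDX1 were not well above background anywhere. For fibroblast markers this was 2 of 9 genes (COL1A1 and THY1). Of the blood cell markers, CD3E and CD14 were among those well above background on all arrays, while PTPRC, LYZ, LUM and COL3A1 were not well above background in any channel.

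MicroRNAs of the miR-200 family pair with messenger RNAs through a short seed near their 5′ end and lower the stability or translation of the paired message. In epithelial cells they are best known for keeping ZEB1 and ZEB2 low, and loss of the family accompanies the epithelial-to-mesenchymal transition (EMT), in which cells lose their junctions and gain motility. The study examined miR-141 and miR-200c together with N-BLR and reports both microRNAs raised in both clones. The question put to the arrays here is what level the messages of further reported targets had. The targets act in several parts of the cell: FN1 in the matrix, MSN, CFL2, WASF3, FHOD1 and PPM1F in the actin cytoskeleton, QKI in RNA processing, TUBB3 in microtubules, NTRK2 in neurotrophin signalling and BMI1 in chromatin.

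The mature microRNAs are shown first because their seeds define the letters that were searched for in the probes. They are RefSeq sequences of build GRCh38.p14, written 5′ to 3′ with the seed, bases 2 to 8, in capitals. The genes of miR-200c and miR-141 lie next to each other on chromosome 12 (chr12:6963742-6963764 and chr12:6964155-6964176, plus strand, for the mature forms).
hsa-miR-200c-3p: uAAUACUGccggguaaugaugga
hsa-miR-200b-3p: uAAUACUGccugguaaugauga
hsa-miR-429: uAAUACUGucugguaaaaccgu
hsa-miR-141-3p: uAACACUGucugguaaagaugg
hsa-miR-200a-3p: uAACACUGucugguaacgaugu
The first group shares the seed AAUACUG and the second AACACUG, which differ by U4C, with positions counted from 1 at the 5′ end of the mature microRNA. The matching letters in a message are CAGTATT and CAGTGTT.

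Of the 25 member probes, 3 held CAGTATT and 1 held CAGTGTT, read along the strand of the message. The windows that follow come from the probe sequences in the deposited files, 5′ to 3′, and the capitals mark the match to the seed.
MSN A_23_P73593: gaagctttCAGTATTagtgatgtcatctg
FN1 A_24_P119745: tacaacCAGTATTctcagagataccatca
NTRK2 A_24_P343559: cttcactctgaCAGTATTaacatcaaaga
CFL2 A_23_P65401: tcctagtacctCAGTGTTcattcctgtta
In MSN and NTRK2 the match is followed by an A, and in FN1 and CFL2 by a C. Over all 41000 probes, CAGTATT was found in 0.641% (263 probes) on this strand and in 0.515% on the other strand, and CAGTGTT in 0.771% (316 probes) and 0.62%. The match is to letters of a probe of 60 bases, not to a whole message, and the place of these probes in coding or untranslated exons was not analysed here. A member without a match in its probes may hold one elsewhere.

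The labels put the clone's RNA in Cy5 and the empty vector RNA in Cy3 on all 4 arrays, with no array of exchanged dyes. Ratios are therefore given as log2 of Cy5 over Cy3. The study gives the opposite direction for its leading genes, E-cadherin and vimentin, from the one these labels give. The channels also went against the labels: the RNA shared by all arrays should give the same signal on the arrays of both clones, and the channel that did so was Cy5. Between the arrays of the clones, 0.0854% of all probes differed in Cy5 alone at limma's p under 0.001 and 18.9% in Cy3 alone, either direction, and with quantiles set within each channel and no loess these shares were 0.1% and 21.1%. This look at single channels was added after the ratios had been seen. Among the 25 member probes, 0 differed in Cy5 and 4 in Cy3, with a median size of the difference of 0.06 and 0.22 on the log2 scale. At an unadjusted p under 0.05 in limma, 1 member probe differed in Cy5 (CFL2 A_23_P65401) and 13 in Cy3. Of all 41000 probes, 2630 differed in Cy5 and 18737 in Cy3 at that threshold. Results are given as higher in Cy5 or higher in Cy3, which is what was measured. With the dyes the other way round than labelled, every sign that follows, and with it each count of probes higher in Cy5 or Cy3 as counts of the clones, turns.

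**Figure D1:**
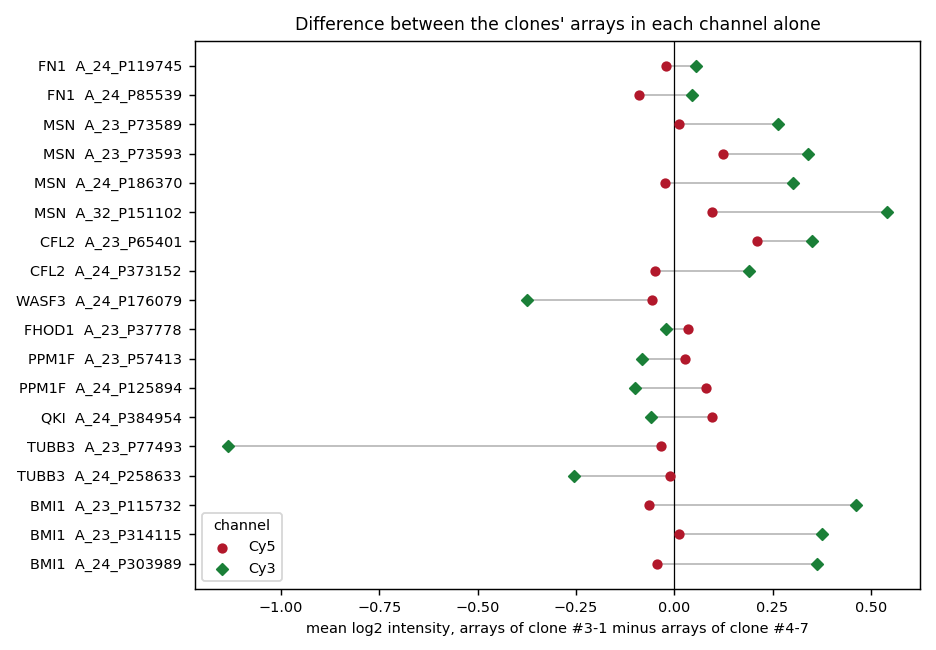
Difference in mean normalised log2 intensity between the 2 arrays of clone #3-1 and the 2 arrays of clone #4-7, shown for Cy5 (red circles) and Cy3 (green diamonds) of the 18 member probes that were well above background. The Cy5 points lie close to 0, the farthest at 0.21 for CFL2, while the Cy3 points reach -1.14 for a TUBB3 probe and 0.54 for an MSN probe.

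Of the 25 member probes, 18 from 9 genes had at least 1 channel well above background on every array, and each of these 18 had both. The other 7 were 3 for NTRK2, 3 of the 4 for QKI and 1 of the 3 for FN1. A moderated test in limma set each clone's log2 ratio against 0, with a probe called at an unadjusted p under 0.001. In clone #3-1, 10 member probes were called higher in Cy5 (40%) and 1 higher in Cy3 (4%), beside 15% and 15.6% of all probes. In clone #4-7, 11 were called higher in Cy5 (44%) and 3 higher in Cy3 (12%), beside 11.8% and 14.9% of all probes. Both clones had 6 probes called higher in Cy5, namely the brightest or only measured probes of CFL2, FHOD1, PPM1F and QKI with a further probe each of CFL2 and BMI1, beside 5.92% of all probes. The FN1 probe A_24_P119745 was called higher in Cy3 in both, beside 7.37% of all probes. Another probe, for TUBB3, was called in opposite directions. Dim probes lower the shares over all probes. Among the 28430 probes that had a channel well above background on every array, 24.7% and 20.5% were called higher in Cy5 and 24.9% and 24.5% higher in Cy3 in clones #3-1 and #4-7. The 17 probes of the colon epithelial markers went the other way than the members, with 0% and 5.88% called higher in Cy5 and 35.3% in each clone higher in Cy3. Their part in the members' values was not tested. The median log2 ratio over the 25 probes was 0.14 in clone #3-1 and 0.20 in clone #4-7, and over all probes 0.0082 and -0.0047. Over the 18 measured probes the median was 0.23 and 0.26.

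Counted by gene through the brightest probe, 5 of the 10 members were called higher in Cy5 in clone #3-1 (CFL2, FHOD1, PPM1F, QKI and TUBB3). In Cy3 it was 1 (FN1). Over all 30982 gene names, with 1 probe per gene, the shares in clone #3-1 were 15.1% and 15.6%. In clone #4-7, 6 members were called higher in Cy5 (BMI1, CFL2, FHOD1, MSN, PPM1F and QKI) and 2 higher in Cy3 (FN1 and WASF3). Over all gene names these shares were 11.7% and 15.3%. The counts of member probes moved with the processing. With plain background subtraction, 4 and 6 probes were higher in Cy5 in clones #3-1 and #4-7. With each array centred on its median in place of loess, 6 and 2 probes were higher in Cy5 and 0 and 0 in Cy3, and of all probes called in clone #3-1 the share higher in Cy5 went from 49.1% to 83%. Without clone #3-1 replicate 1 the count higher in Cy5 in clone #3-1 was 5, and without its replicate 2 it was 6. Without clone #4-7 replicate 1 or replicate 2 the count in clone #4-7 was 6. The empty vector RNA is shared by both clones, so values alike in both are not independent of each other. In bulk RNA, fewer cells with a message and less message per cell cannot be told apart.

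**Figure D2:**
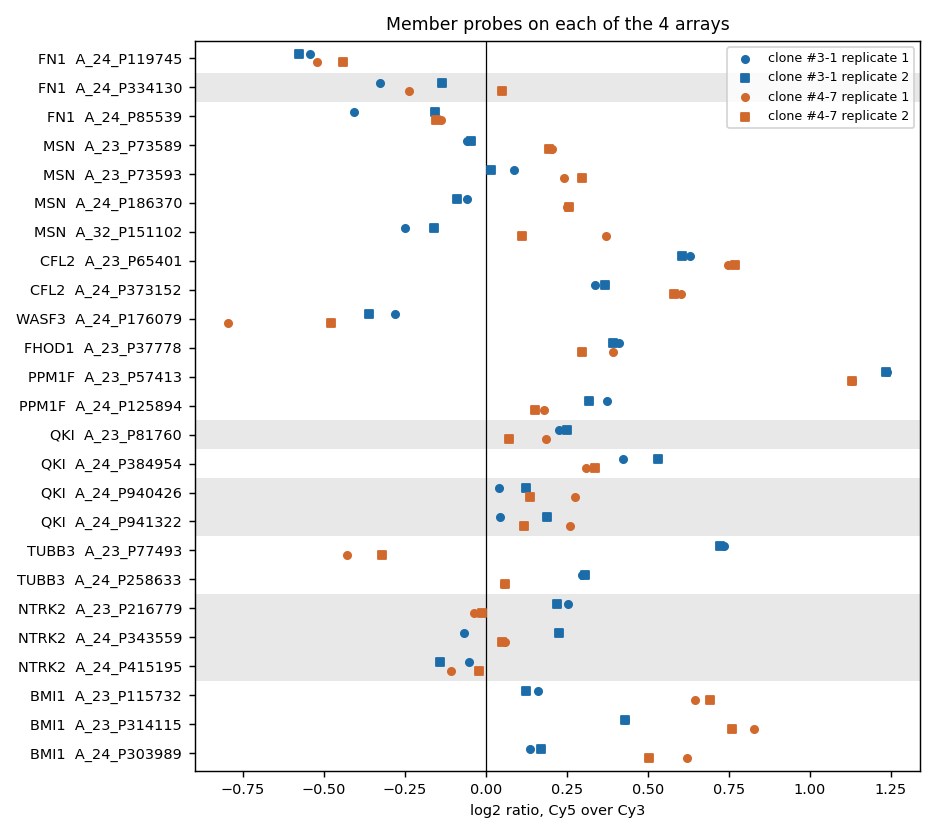
Log2 ratio of Cy5 over Cy3 for the 25 member probes on each of the 4 arrays (blue for clone #3-1, orange for clone #4-7, circles for replicate 1 and squares for replicate 2). Grey bands mark the 7 probes that were not well above background in any 1 channel on all arrays. PPM1F A_23_P57413 lies above 1.1 on all arrays, and TUBB3 A_23_P77493 is the measured probe whose called ratios have opposite signs in the clones.

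FN1 encodes fibronectin, a matrix glycoprotein that cells bind through integrins and that is a usual mesenchymal marker. It was higher in Cy3 in both clones by its brightest probe, A_24_P119745 (hg17, chr2:216051838-216052239, minus strand), the one that holds the miR-200c seed match. Its log2 ratio was -0.54 and -0.58 on the arrays of clone #3-1 and -0.52 and -0.44 on those of clone #4-7. All 4 arrays were negative, and the values of the clones lay side by side without overlap. The means were -0.56 ± 0.02 and -0.48 ± 0.06 (SD, n = 2 arrays each), that is 1.47-fold and 1.40-fold higher in Cy3 (limma's adjusted p = 0.00021 and 0.0004). The probe is printed on 10 spots of every array. Single spots ranged from -0.69 to -0.40 in clone #3-1 and from -0.65 to -0.35 in clone #4-7, so none was positive. The call was made under 17 of 18 alternatives in each clone, the exception in both being median centring. The probe A_24_P85539 gave -0.41 and -0.16 in clone #3-1 and -0.14 and -0.15 in clone #4-7, in the same direction and not called (adjusted p = 0.016 and 0.13 in limma). It was called in clone #3-1 without replicate 2, at -0.41. The third probe, A_24_P334130, was not well above background in Cy5 on either array of clone #3-1, nor in Cy3 on 1 of them, so no fold is given. In clone #4-7 1 of 2 arrays was well above background in each channel. The clones did not differ in FN1 past the threshold: for A_24_P119745 the difference, clone #3-1 minus clone #4-7, was -0.08 with an SE of 0.05, and it was 0.04 with median centring.

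Among the members of the actin cytoskeleton, MSN encodes moesin, which links actin filaments to proteins of the plasma membrane. All 4 MSN probes were well above background in both channels. The brightest, A_23_P73589 (hg17, chrX:64744622-64744681, plus strand), gave -0.06 and -0.05 in clone #3-1 against 0.21 and 0.20 in clone #4-7. The probe with the seed match, A_23_P73593 (chrX:64744342-64744401), gave 0.09 and 0.02 against 0.24 and 0.30. For A_24_P186370 the values were -0.06 and -0.09 against 0.25 and 0.26. For A_32_P151102 they were -0.25 and -0.16 against 0.37 and 0.11. On each of the 4 probes both arrays of clone #4-7 lay above both arrays of clone #3-1. In clone #4-7, 3 of the 4 were called higher in Cy5 by 1.15-fold to 1.21-fold (limma's adjusted p from 0.0018 to 0.0037), and in clone #3-1 none was called (adjusted p from 0.056 to 0.27). These calls in clone #4-7 are small. Each was lost when any 1 array was left out, with values from 0.20 to 0.30, and with the replicate number as a block. Each was also lost with a normexp offset of 0, plain subtraction, processed signals, the authors' table and median centring. They were made under 6 of 17, 7 of 18 and 6 of 17 alternatives for A_23_P73593, A_23_P73589 and A_24_P186370. The difference between the clones was past the threshold for A_24_P186370, at -0.33 (SE 0.04, limma's adjusted p = 0.0035). That call was lost when any 1 array was left out and was made under 6 of 16 alternatives. For the other probes the difference ranged from -0.45 to -0.22. With median centring the ratio of 3 MSN probes in clone #3-1 turned positive, up to 0.68 for A_23_P73589, and the difference turned positive for A_23_P73589 and A_23_P73593.

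CFL2 encodes the muscle form of cofilin, which severs and depolymerises actin filaments. Both probes were higher in Cy5 in both clones. A_23_P65401 (hg17, chr14:34251213-34251272, minus strand), which holds the miR-141 seed match, gave 0.63 and 0.60 in clone #3-1 and 0.75 and 0.77 in clone #4-7. These are 1.53-fold and 1.69-fold (limma's adjusted p = 0.00011 in each). A_24_P373152 gave 0.34 and 0.37 against 0.60 and 0.58, or 1.28-fold and 1.51-fold (limma's adjusted p = 0.00053 and 0.00016). All arrays were positive for both probes, and both arrays of clone #4-7 lay above those of clone #3-1. The difference between the clones did not pass the threshold for either probe (-0.14 and -0.24, adjusted p = 0.051 and 0.0099), and with median centring it was 0.35 and 0.19. The calls of A_23_P65401 were made under all 18 alternatives in both clones. For A_24_P373152 in clone #3-1 the call was made under 10 of 17 and was lost without either array of that clone, at 0.37 and 0.34.

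WASF3 encodes a subunit of the WAVE complex, through which Rac signalling starts branched actin growth. Its only probe, A_24_P176079, was dim, with a log2 intensity between 6.84 and 7.64, but well above background in both channels on all arrays. It gave -0.28 and -0.36 in clone #3-1 and -0.80 and -0.48 in clone #4-7. All arrays were negative, and the clones did not overlap. The ratio was called in clone #4-7 at 1.56-fold higher in Cy3 (-0.64 ± 0.23, SD, n = 2 arrays; limma's adjusted p = 0.0023) and not in clone #3-1 (-0.32 ± 0.06, adjusted p = 0.022). The spread between the 2 arrays of clone #4-7 was the widest of the called member probes. The difference between the clones, 0.32 with an SE of 0.11, did not pass the threshold. Over all settings the ratio in clone #4-7 ran from -1.50 to -0.48, and its call was lost with a normexp offset of 0 (-0.98) and with median centring (-0.73). In clone #3-1 the ratio reached -1.05 with Feature Extraction processed signals, where it was called, and it was called under 4 of 18 alternatives.

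FHOD1 encodes a formin that bundles and caps actin filaments, and PPM1F encodes a phosphatase that acts on PAK and CaM kinases. The FHOD1 probe A_23_P37778 gave 0.41 and 0.39 in clone #3-1 and 0.39 and 0.30 in clone #4-7. All arrays were positive, and the values of the clones nearly met. The ratio was 1.32-fold and 1.27-fold higher in Cy5 (limma's adjusted p = 0.00064 and 0.0013), and the difference between the clones was 0.06 with an SE of 0.05. Each call was lost when an array of the same clone was left out, with values from 0.30 to 0.41, and with a normexp offset of 0, plain subtraction and processed signals, with values from 0.31 to 0.40. In clone #4-7 it was also lost with median centring, at 0.53.

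PPM1F had the largest ratio among the members as processed here. A_23_P57413 gave 1.24 and 1.24 in clone #3-1 and 1.13 and 1.13 in clone #4-7, or 2.36-fold and 2.19-fold higher in Cy5. Limma's adjusted p was 3.2e-05 and 5.3e-05, and both calls were made under all 18 alternatives. The SD between replicates was 0.003 and 0.001 (n = 2 arrays each). A_24_P125894 gave 0.38 and 0.32 against 0.18 and 0.15, a 1.27-fold difference in clone #3-1 (limma's adjusted p = 0.00071) and 1.12-fold, not called, in clone #4-7 (adjusted p = 0.011). The call in clone #3-1 was made under 12 of 17 alternatives. It was lost without its replicate 1, at 0.32, with a normexp offset of 0 (0.41), with plain subtraction (0.43), in the authors' table (0.53) and with median centring (0.52). The probes of PPM1F thus had the same sign on all arrays and disagreed in size. By the coordinates in the files, A_23_P57413 spans 5544 bases of chromosome 22 (hg17, chr22:20604550-20610093, minus strand), whereas A_24_P125894 lies within 60 bases (chr22:20599729-20599788). Whether the probes read the same set of transcripts was not tested.

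**Figure D3:**
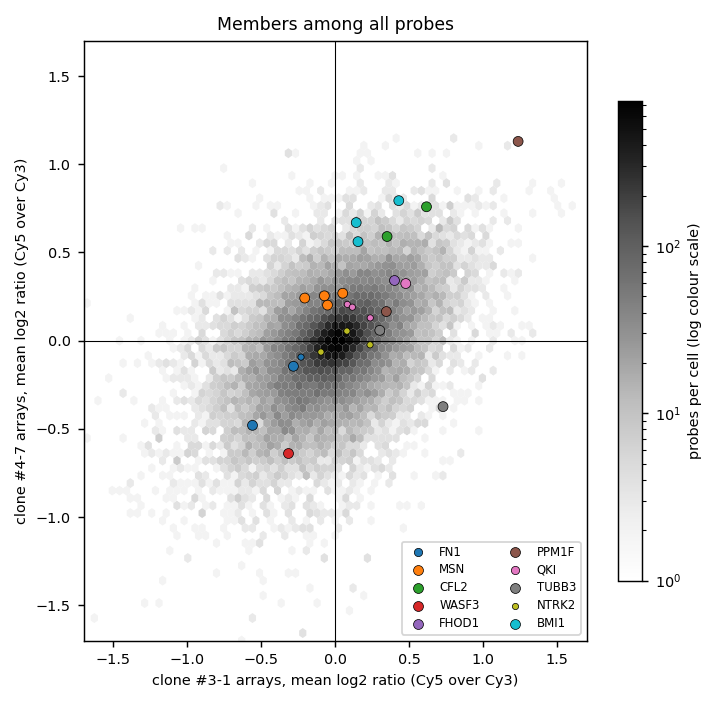
Mean log2 ratio of Cy5 over Cy3 in clone #3-1 (horizontal) and clone #4-7 (vertical) for all probes, as grey cells shaded by the number of probes, and for the 25 member probes as coloured points, smaller where the probe was not well above background. The axes end at 1.7, which leaves out 282 of the 41000 probes and no member; both clones share the empty vector RNA, so the axes are not independent.

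QKI encodes an RNA-binding protein of the STAR family that governs splicing and the formation of circular RNA. The array holds 4 QKI probes, of which A_24_P384954 was measured on all arrays. It gave 0.42 and 0.53 in clone #3-1 and 0.31 and 0.34 in clone #4-7. All arrays were positive and the clones did not overlap, but the difference of 0.15 (SE 0.05) did not pass the threshold (limma's adjusted p = 0.083). The ratio was 1.39-fold and 1.25-fold higher in Cy5 (limma's adjusted p = 0.00045 and 0.002). In clone #4-7 the call was lost without either of its arrays, at 0.34 and 0.31. It was also lost with a normexp offset of 0, plain subtraction, the authors' table and median centring, and was made under 11 of 18 alternatives. In clone #3-1 the call was lost with plain subtraction, the authors' table and median centring, and was made under 14 of 18. With Feature Extraction processed signals the ratios were 0.85 and 0.71, neither of them called. A_23_P81760 was not well above background in either channel on any array. A_24_P941322 and A_24_P940426 were so on some arrays only, and none of the 3 dim probes was called. QKI is made as several isoforms, and the probes were not assigned to isoforms here.

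TUBB3 encodes class III beta-tubulin, a microtubule subunit of neurons that many carcinomas also express. Its 2 probes were bright and parted in clone #4-7. A_23_P77493 gave 0.74 and 0.72 in clone #3-1 and -0.43 and -0.32 in clone #4-7, so that the clones had opposite signs on every array. The ratio was 1.66-fold higher in Cy5 in clone #3-1 and 1.30-fold higher in Cy3 in clone #4-7 (limma's adjusted p = 0.00013 and 0.0012). The difference between the clones was 1.10 (SE 0.05, limma's adjusted p = 0.00027), and it was called under all 16 alternatives that gave a value. Seen by channel, the log2 intensity in Cy5 was 14.10 to 14.22 on the 4 arrays. In Cy3 it was 13.37 and 13.42 with clone #3-1 and 14.53 and 14.54 with clone #4-7, a difference of -1.14 (limma's adjusted p = 0.00013 in the fit of Cy3 alone). The call in clone #4-7 was lost without its replicate 1, at -0.32, with the other background corrections and the authors' values (-0.37 to -0.34), and with median centring, at -0.07. A_24_P258633, the brighter probe, gave 0.30 and 0.31 against 0.06 and 0.06. It was 1.23-fold higher in Cy5 in clone #3-1 (limma's adjusted p = 0.00078), and was not called in clone #4-7. The call in clone #3-1 was lost without either array of that clone (0.31 and 0.30) and with a normexp offset of 0, plain subtraction and processed signals (0.29 to 0.30). Both probes thus had the higher ratio in clone #3-1, by 1.10 and 0.24, the latter short of the threshold (adjusted p = 0.0082). They lie near each other on chromosome 16 (hg17, chr16:88529436-88529495 and chr16:88529938-88529997), and why they differ was not tested.

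NTRK2 encodes TrkB, the receptor of the neurotrophin BDNF. Its 3 probes were not well above background in either channel on any of the 4 arrays, so no fold is given for NTRK2. The log2 ratio of A_23_P216779 in clone #3-1, 0.25 and 0.22, nonetheless passed the threshold (limma's adjusted p = 0.0022) and is part of the count of 10 above. Without it, 9 measured probes were higher in Cy5 in clone #3-1. The probe with the seed match, A_24_P343559, gave -0.07 and 0.23 in clone #3-1 and 0.06 and 0.05 in clone #4-7.

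BMI1 encodes a subunit of Polycomb repressive complex 1, which holds genes silent through ubiquitination of histone H2A and supports self-renewal of stem cells. All 3 probes were higher in Cy5 on all arrays, more so with clone #4-7. A_23_P115732, the brightest, gave 0.16 and 0.13 in clone #3-1 and 0.65 and 0.69 in clone #4-7. A_23_P314115 gave 0.43 and 0.43 against 0.83 and 0.76. A_24_P303989 gave 0.14 and 0.17 against 0.62 and 0.50. No array of 1 clone overlapped with the other clone on any of the probes. In clone #4-7 all 3 were called at 1.47-fold to 1.73-fold (limma's adjusted p from 0.00012 to 0.00038). In clone #3-1 only A_23_P314115 was called, at 1.35-fold (limma's adjusted p = 0.00038). The difference between the clones passed the threshold for each probe, at -0.53, -0.36 and -0.41 (SE 0.04, 0.05 and 0.06; limma's adjusted p = 0.00099, 0.0034 and 0.0044). In Cy3 alone the clones differed by 0.46, 0.38 and 0.36, all called, and in Cy5 alone by -0.07, 0.01 and -0.04. The differences of A_23_P314115 and A_24_P303989 lost their call when any 1 array was left out (from -0.47 to -0.33) and with the replicate number as a block. They were called under 8 and 6 of 16 alternatives. With median centring the 3 differences were -0.05, 0.05 and -0.05, none of them called. For A_23_P115732 the call was also lost with plain background subtraction, at -0.56, and without clone #4-7 replicate 2, at -0.50.

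Over all members, the difference between the clones was called for 5 probes: TUBB3 A_23_P77493 with the higher ratio in clone #3-1, and the 3 BMI1 probes and MSN A_24_P186370 with the lower one. That is 4% and 16% of the 25 probes, beside 10.9% and 9.16% of all probes. In this contrast the shared RNA cancels.

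**Figure D4:**
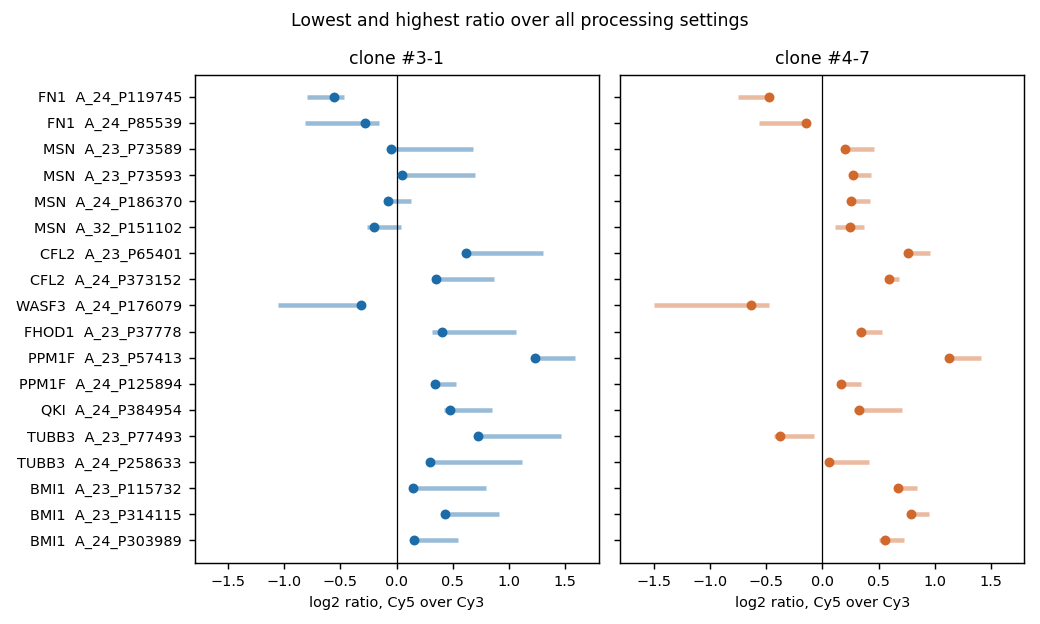
Log2 ratio of Cy5 over Cy3 of the 18 measured member probes in clone #3-1 and clone #4-7: the point is the value reported in the text and the bar runs from the lowest to the highest value over all processing alternatives. In clone #3-1 the bars of 3 MSN probes cross 0, and in clone #4-7 no bar does.

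Other reported targets of the family were read from a list of 32 genes with 57 probes. The list had 14% of its probes called higher in Cy5 and 17.5% higher in Cy3 in clone #3-1, and 21.1% and 12.3% in clone #4-7. Of all 41000 probes, these shares were 15% and 15.6% in clone #3-1, and 11.8% and 14.9% in clone #4-7. Counted by the brightest probe, 6 genes were higher in Cy5 and 5 higher in Cy3 in clone #3-1, and 8 and 6 in clone #4-7, with medians of 0.05 and -0.0003 over the genes. For all gene names the shares were 15.1% and 15.6%, and 11.7% and 15.3%. ZEB1, the repressor of E-cadherin that is the best-known target, was named TCF8 on the array. Its probe A_23_P202013 gave 0.63 and 0.58 in clone #3-1 and -0.18 and -0.0003 in clone #4-7. In clone #3-1 Cy3 was not well above background on either array, so its ratio there is only a bound. As processed here ZEB1 was at least 1.52-fold higher in Cy5 (limma's adjusted p = 0.00051). For such a bound the dim channel was given, on each array, the lowest signal of any probe well above background, or the probe's own signal where that was higher. The ratio ran from 0.37 to 2.11 over the alternatives and was called under 13 of 18, so the bound belongs to this processing alone. In clone #4-7 ZEB1 was not called under any alternative, whichever dye holds the clone. The study reports lower ZEB1 mRNA and protein in both clones than in the empty vector control. The size of the difference between the clones is not given, since it rests on the dim channel. In Cy5 the log2 intensity of ZEB1 was 7.35 to 7.46 on all arrays. ZEB2 (ZFHX1B on the array) was not well above background in any channel. Of the list, 3 genes were called higher in Cy5 in both clones: JAG2, a Notch ligand (0.41 and 0.44), PLCG1, a phospholipase (0.35 and 0.25), and UBQLN1, a ubiquilin (0.83 and 0.39). RND3, which restrains actin contraction, was higher in Cy3 in both (-2.29 and -1.41), as was PTPN13, a phosphatase (-0.25 and -0.57; the former 0.26 with median centring). The genes called in opposite directions were JAG1, another Notch ligand (1.01 and -1.61), ETS1, a transcription factor (-0.53 and 0.32), and ARHGAP19 (-0.22 and 0.24; the former 0.29 with median centring). In clone #4-7 the Cy3 signal of ETS1 was not well above background, and as processed here it was at least 1.25-fold higher in Cy5, with a ratio from 0.24 to 1.51 over the alternatives and a call under 13 of 18. Among the values of these genes, the calls of PTPN13 in clone #3-1, ARHGAP19 in both clones and PLCG1 in clone #4-7 were made under 7, 7, 7 and 9 of 18 alternatives.

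The partners of the cytoskeletal members were read from a list of 28 genes with 49 probes. Of the probes, 36.7% were called higher in Cy5 and 20.4% higher in Cy3 in clone #3-1, and 30.6% and 24.5% in clone #4-7. Of the 49 probes, 47 were well above background in both channels on all arrays, against 65.6% of all probes. Of all 41000 probes, 15% and 15.6% were called higher in Cy5 and in Cy3 in clone #3-1, and 11.8% and 14.9% in clone #4-7. Among the 28430 probes with a channel well above background on every array, these were 24.7% and 24.9%, and 20.5% and 24.5%. By the brightest probe, 10 genes were higher in Cy5 and 5 higher in Cy3 in clone #3-1, and 9 and 6 in clone #4-7. For all gene names the shares were 15.1% and 15.6%, and 11.7% and 15.3%. Of the formins beside FHOD1, 3 of 5 were higher in Cy5 in both clones: DIAPH1 (0.22 and 0.38), DIAPH3 (0.90 and 0.80) and FHOD3 (2.03 and 0.45). Another 1 of the 5 was called higher in Cy3 in clone #4-7. Over the whole array, 5.92% of probes were called higher in Cy5 in both clones. Among the cofilin relatives and regulators, 2 of 7 were higher in Cy5 in both clones. These were LIMK1 (1.03 and 0.38), the kinase that inactivates cofilin, and SSH1 (0.26 and 0.31), the phosphatase that activates it. Destrin (DSTN) was higher in Cy3 in both (-0.25 and -0.58, the former 0.60 with median centring). In clone #4-7, 3 of the 7 were called higher in Cy3, destrin among them. The kinases ROCK1 (0.80 and 0.66) and ROCK2 (0.81 and 0.22) were higher in Cy5 in both clones. In the WAVE complex beside WASF3, 1 of 8, CYFIP1, was higher in Cy3 in both (-0.48 and -0.34; the former 0.22 with median centring) and none was higher in Cy5 in both. In clone #3-1, 3 of the 8 were called higher in Cy5 and 3 higher in Cy3, and in clone #4-7 0 and 2. Ezrin (EZR), a relative of moesin with the same linking role, was called in opposite directions (-0.72 and 0.75, the former 0.19 with median centring). The calls of SSH1, DSTN and DIAPH1 in clone #3-1 and of ROCK2 in clone #4-7 were made under 7, 7, 8 and 8 of 18 alternatives.

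The relatives of the other members filled a list of 33 genes with 60 probes, of which 23.3% were called higher in Cy5 and 13.3% higher in Cy3 in clone #3-1, and 26.7% and 20% in clone #4-7. Of all 41000 probes, these shares were 15% and 15.6% in clone #3-1, and 11.8% and 14.9% in clone #4-7. By the brightest probe, 9 genes were higher in Cy5 and 7 higher in Cy3 in clone #3-1, and 8 and 11 in clone #4-7. Of 7 further beta-tubulin genes, 4 were called higher in Cy5 in each clone and 0 higher in Cy3. Over all gene names, 15.1% and 11.7% were called higher in Cy5 in clones #3-1 and #4-7, and 15.6% and 15.3% higher in Cy3. TUBB (0.39 and 0.35), TUBB2A (0.29 and 0.22) and TUBB4B (1.19 and 0.95) were called in both clones. The brightest TUBB3 probe, A_24_P258633, was also positive in both (0.30 and 0.06), called in clone #3-1 alone. The less bright A_23_P77493 had opposite signs. Under the other background corrections and scalings the beta-tubulins called higher in Cy5 numbered 2 to 5 of 7, with 0 higher in Cy3. Of 6 neurotrophins and their receptors, BDNF (-0.48 and -0.86) and NTF4 (-0.72 and -0.56) were higher in Cy3 in both clones and NTF3 in opposite directions (-0.65 and 0.32). Of 15 further Polycomb proteins, none was higher in Cy5 in both clones and CBX6 (-0.59 and -0.67), CBX7 (-0.44 and -0.59) and PHC1 (-0.25 and -0.29) were higher in Cy3 in both, with CBX6 and CBX7 at 0.02 and 0.15 in clone #3-1 under median centring. In clone #3-1, 5 of the 15 were called higher in Cy5 and 3 higher in Cy3, and in clone #4-7 1 and 7. CBX8 (0.29 and -0.32) had opposite signs, with the lower ratio in clone #4-7, where BMI1 had its higher one. Among the integrin subunits that bind fibronectin, ITGA5 was called in opposite directions (-0.36 and 0.22; the former 0.21 with median centring). The calls of ITGA5 and TUBB2A in clone #4-7 and of CBX8 and PHC1 in clone #3-1 were made under 7, 8, 8 and 9 of 18 alternatives.

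**Figure D5:**
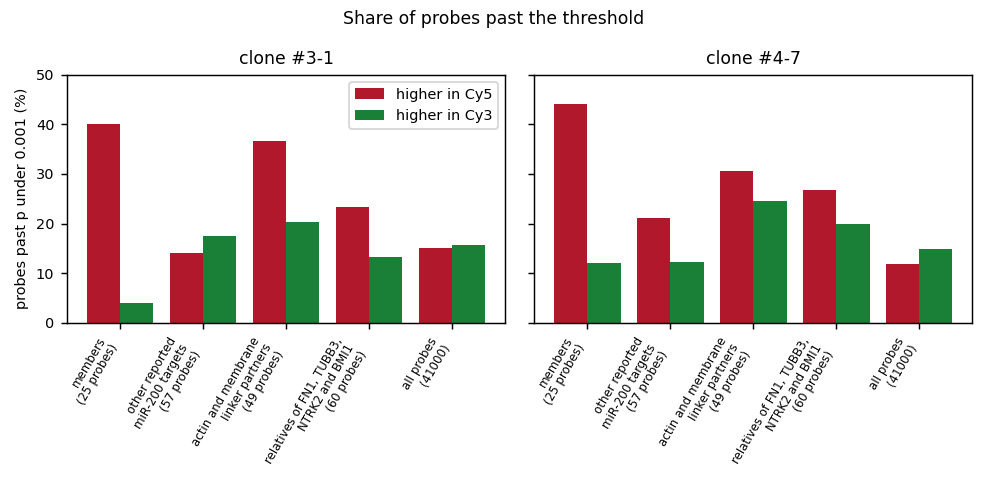
Share of probes past limma's unadjusted p under 0.001, higher in Cy5 (red) or higher in Cy3 (green), for the members, the 3 lists of related genes and all 41000 probes, in each clone. The members had 40% and 44% of their probes higher in Cy5, and the actin and membrane linker partners 36.7% and 30.6%. Of all probes these were 15% and 11.8%. Among the 28430 probes with a channel well above background on every array they were 24.7% and 20.5%. The members and lists were chosen with earlier results of these data known, so the order of the bars tests nothing.

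The probes that hold a seed match were also counted over the whole array, as a description without a test. Of the 263 probes with CAGTATT along the message, 20.9% were called higher in Cy5 and 8.75% higher in Cy3 in clone #3-1, and 16.3% and 12.9% in clone #4-7. Of the 211 probes with the same letters on the other strand, the shares were 14.7% and 15.6%, and 11.8% and 9.95%. For CAGTGTT along the message, 19.6% and 11.7% were called in clone #3-1 and 16.1% and 8.86% in clone #4-7. On the other strand these were 13.8% and 12.6%, and 8.27% and 12.2%. Over all probes, 15% and 15.6% were called higher in Cy5 and in Cy3 in clone #3-1, and 11.8% and 14.9% in clone #4-7. How many of the matching probes were well above background was not counted. The median log2 ratio of the CAGTATT probes was 0.05 and 0.01, and of the CAGTGTT probes 0.04 and 0.03. The 4 member probes with a match did not share a direction: CFL2 was higher in Cy5 in both clones, FN1 higher in Cy3 in both, MSN was called in clone #4-7 alone and NTRK2 was not measured.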

How the data were processed

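The deposited files of the 4 arrays hold, per the file headers, the mean intensity of each spot and the median intensity of its local background in Cy5 and Cy3, as read by Agilent Feature Extraction (version 9.5.3.1 in the header, 8.5.1.1 in the submitters' processing notes), with flags of 0 or 1 for outliers, saturation and signal above background. The same deposited files give processed intensities and the log10 ratio of Cy5 over Cy3. A table of log10 ratios deposited by the authors lay within 0.005 of the scanner files' ratios (largest difference 0.00499). The median of each of its 4 columns was 0, so its scale and direction are those of the scanner files.

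Intensities were processed in R 4.3.3 with limma 3.58.1: normexp background correction with an offset of 50 on all spots, control spots and outlier flags left out, loess within arrays, Aquantile between arrays, and the mean of the spots of a probe, all on the log2 scale. The study's methods name limma, background correction, normalization within and quantiles between arrays, empirical Bayes statistics and a p threshold of 0.001, which was applied to the unadjusted p. A linear model with 1 term per clone was fitted to all 41000 probes over the 4 arrays, with Benjamini-Hochberg adjustment over all probes. The largest adjusted p among the calls was 0.0033, 0.0037 and 0.005 for clone #3-1, clone #4-7 and their difference. The control RNA is 1 sample, and its own spread does not enter this test. Between 68.5% and 72.6% of probe spots were well above background in a channel. Precision is limited by the number of arrays. The fit was tested on simulated data.

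Members were found by the gene name in the files. The accessions of 23 of the 25 member probes matched the same symbol in RefSeq (GRCh38.p14), 2 were not in the table, and 0 probes under another name matched a member. The table matched 23434 of the 41000 probes. Coordinates are those of hg17 in the files. All 4 arrays lie on 1 slide. The members and lists were chosen with earlier results of these data known. The genes named are all member probes, the list genes whose brightest probe passed in both clones, and ZEB1 and ZEB2. List genes were taken through current symbols or older names. The lists are given as counts and medians, with no set test. Replicate numbers did not pair the arrays (correlation of same-numbered deviations across probes -0.014), so no block was used. The lowest correlation between arrays across probes was 0.39. Alternatives covered the background, the normalization, the dim and saturated spots, the prior variance, the threshold, the block and each left-out array. Quantiles over both channels and the fits of single channels were added after the data had been seen. Some genes of the lists are not reported here.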

Additional observations from a re-analysis of the deposited data

Results flagged for a closer look

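The effect of 5 member probes differed between the clones by limma's test of the difference itself, each with both arrays of a clone on the same side of the other clone's. The log2 ratio in clone #3-1 minus that in clone #4-7 was 1.10 for TUBB3 A_23_P77493 (ratio 0.73 and -0.37, limma's adjusted p = 0.00027). It was -0.53 for BMI1 A_23_P115732 (0.14 and 0.67), -0.36 for BMI1 A_23_P314115 (0.43 and 0.79) and -0.41 for BMI1 A_24_P303989 (0.15 and 0.56), with limma's adjusted p from 0.00099 to 0.0044. For MSN A_24_P186370 it was -0.33 (-0.07 and 0.25, limma's adjusted p = 0.0035). In each of the 5 the Cy3 signal moved more between the clones' arrays than the Cy5 signal, with differences in Cy3 of -1.14, 0.46, 0.38, 0.36 and 0.30 and in Cy5 of -0.03, -0.07, 0.01, -0.04 and -0.02. The part of the dyes and of the clones in these differences was not tested. A difference of ratios is the Cy5 difference minus the Cy3 difference, and 0.0854% of all probes differed in Cy5 alone. Probes picked for a called difference were therefore largely set to show it in Cy3, which says nothing particular about these 5.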

How the results depend on the processing

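Counts of member probes called are given in the order higher in Cy5 and higher in Cy3 in clone #3-1, the same in clone #4-7, and higher and lower ratio in clone #3-1 for the difference: 10, 1, 11, 3, 1 and 4. They were 5, 1, 5, 1, 1 and 1 with a normexp offset of 0, and 4, 1, 6, 2, 1 and 0 with plain background subtraction. Feature Extraction processed signals gave 5, 2, 7, 3, 1 and 2, the authors' table of log10 ratios 6, 1, 7, 2, 2 and 2, median centring 6, 0, 2, 0, 1 and 0, and quantiles over both channels 11, 2, 12, 3, 2 and 6. Only probes well above background gave 9, 1, 11, 3, 2 and 5, an intensity trend in the prior variance 11, 3, 12, 3, 2 and 9, an adjusted p under 0.05 13, 3, 16, 3, 4 and 8, and the brightest probe per gene 5, 1, 6, 2, 0 and 1. With the replicate block they were 9, 1, 8, 3, 1 and 1, and each clone on its own arrays gave 9, 1, 8 and 3, with no value for the difference. With each array left out in turn the ranges were 5 to 9, 1 to 2, 6 to 8, 2 to 3, always 1, and 0 to 1. Counts were lowest for Cy5 without an array of the same clone, where the lone array is taken to vary like those of the other clone. With no normalization between arrays the ratios are the same by construction, and leaving out saturated spots changed no count. Over the 3 comparisons and all alternatives, 385 called values of measured member probes kept their call and direction, 117 kept their direction without the call and 1 turned.

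Values that turned with median centring were 0.68, 0.041 and 0.13 for MSN A_23_P73589, A_32_P151102 and A_24_P186370 in clone #3-1. For the difference they were 0.043 for FN1 A_24_P119745, 0.26 and 0.23 for MSN A_23_P73593 and A_23_P73589, 0.050 for BMI1 A_23_P314115, whose difference of -0.36 had been called, and 0.19 and 0.35 for CFL2 A_24_P373152 and A_23_P65401. With quantiles over both channels the difference of PPM1F A_23_P57413 was -0.0021. Median centring also moved the calls of all probes to 83% higher in Cy5 in clone #3-1 and to 84.6% with the higher ratio in clone #3-1 for the difference, from 49.1% and 54.2%. The number of all probes called fell from 12556, 10965 and 8203 in clone #3-1, clone #4-7 and the difference to 6516, 4970 and 3288 with a normexp offset of 0, to 6405, 5808 and 3489 with plain subtraction and to 4600, 1116 and 793 with median centring. It rose to 22047, 19257 and 16298 with an adjusted p under 0.05, and processed signals gave 8078 for clone #3-1 and 4828 for the difference. With an intensity trend it was 16520 for clone #4-7 and 14271 for the difference. Leaving out 1 array of the clone in question gave 6940 to 7000 in clone #3-1 and 4755 to 5715 in clone #4-7, and the difference gave 4098 to 4844. The cause of these changes was not tested. Signal over background limited 3 NTRK2, 3 QKI and 1 FN1 probe.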
